A study of Mus musculus with 12 samples.

Results

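The fibrillar collagens and the connective tissue matrix were examined in E12.5 autopods, the plates from which hand and foot form, of wild-type mouse embryos. The genes were the collagen chains Col1a1, Col1a2, Col3a1, Col5a1 and Col5a2, the glycoproteins Tnc and Postn, the microfibril protein Fbn2 and the leucine-rich proteoglycans Dcn and Lum. These 10 of the 18194 genes named on the arrays were chosen by symbol, and all probe sets annotated to exactly 1 of them were taken, where a probe set is a group of short array probes that reads 1 transcript. This gave 20 of the 45265 probe sets on the Affymetrix MOE430 GeneChip pair, 16 of 22690 in the A design and 4 of 22575 in the B design. There were 3 hindlimb samples (numbered 12, 14 and 26) and 3 forelimb samples (11, 13 and 25), each on both designs, 12 arrays in all. All were wild type with no treatment named, and the comparison asks which of these genes differ between foot and hand plate. For forelimb 11 on the A array the limb rests on the sample's title alone. The labels do not say whether samples were single embryos or pools, so a p-value here reflects the spread among the samples alone, which may be technical.

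Fibrillar collagens are secreted as long triple helices and pack side by side into the fibres that carry tension in skin, tendon and bone. Type I collagen is built from Col1a1 and Col1a2 chains, type III from Col3a1 chains, and type V, which contains Col5a1 and Col5a2 chains, starts new fibrils and limits their width. Decorin (Dcn) and lumican (Lum) bind the fibril surface and regulate fibril growth, tenascin C (Tnc) and periostin (Postn) mark developing connective tissue, and fibrillin 2 (Fbn2) forms the microfibrils of embryonic tissue. In the limb plate at this stage these genes are read mainly from loose mesenchyme, forming tendon and perichondrium. Since whole autopods were measured, fewer cells of a type and less RNA per cell cannot be told apart.

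The promoters of 3 members are shown because their signals lay on different sides of 0: Col1a2 and Tnc had lower A-array signals in hindlimb, and Col3a1 had higher ones. Each is the stretch before the transcription start in RefSeq (GRCm38.p6), read 5′ to 3′ on the gene's strand, and for Tnc the downstream of its 2 listed starts was taken. Capitals mark matches to the TATA-box letters TATAAA or the CCAAT-box letters CCAAT, searched on both strands.
Col1a2, chr6:4505368-4505617, plus strand: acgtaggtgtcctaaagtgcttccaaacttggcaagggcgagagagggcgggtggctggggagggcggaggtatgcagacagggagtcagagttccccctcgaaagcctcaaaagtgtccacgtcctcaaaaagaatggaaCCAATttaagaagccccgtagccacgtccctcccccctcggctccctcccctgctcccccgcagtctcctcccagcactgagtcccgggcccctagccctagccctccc
Col3a1, chr1:45311288-45311537, plus strand: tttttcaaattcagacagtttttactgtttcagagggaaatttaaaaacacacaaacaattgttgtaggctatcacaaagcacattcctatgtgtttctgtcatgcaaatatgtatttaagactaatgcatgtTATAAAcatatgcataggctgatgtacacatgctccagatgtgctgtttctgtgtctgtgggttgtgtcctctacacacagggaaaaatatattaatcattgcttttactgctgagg
Tnc, chr4:64046937-64047186, minus strand: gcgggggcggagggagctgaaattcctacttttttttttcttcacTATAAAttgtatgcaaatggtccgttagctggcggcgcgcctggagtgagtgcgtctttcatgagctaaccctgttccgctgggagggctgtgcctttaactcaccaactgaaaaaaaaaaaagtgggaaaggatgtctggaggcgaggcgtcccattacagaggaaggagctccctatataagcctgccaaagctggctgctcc
Col1a2 had 1 CCAAT match, starting 109 bases before the start. Col3a1 and Tnc had 1 TATAAA match each, starting 117 and 205 bases before it. Of all 32851 listed promoters, 12.4% held TATAAA and 33.8% held CCAAT within the same 250 bases. Only these exact letters are marked, so near matches, such as tatataa close to the end of the Tnc stretch, are not. A match is a description of the letters and not a binding site. RefSeq promoters were found for 5 of the 10 genes.

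Signals are the authors' MAS5.0 intensities, brought to a 2% trimmed mean of 500 on every array. On the A arrays 65.6% to 68.1% of probe sets had a signal of at least 100, and on the B arrays 72.7% to 75.5%. A probe set was tested if it reached 100 on at least 3 of the 6 arrays, which left 15338 in the A design and 17145 in the B design. All 20 matrix probe sets passed, each with at least 5 arrays at or above 100. Differences are hindlimb minus forelimb of log2(signal + 32), and the added 32 shrinks the fold change of dim probe sets. They were tested within each design by limma with Benjamini-Hochberg adjustment over all tested probe sets. The limb mesenchyme and autopod genes Prrx1, Msx1 and Hoxd13 had A signals of 1836 to 3202 over the 6 samples, so the defining markers of the labelled tissue were present. Of the limb-specific factors on the A array, the hindlimb gene Pitx1 had 478, 678 and 501 in hindlimb and 159.8, 99 and 102 in forelimb (1.95 ± 0.19, limma adjusted p = 0.00441). The forelimb gene Tbx5 had 29.3, 174 and 29.7 in hindlimb and 1145, 1325 and 1381 in forelimb (-3.83 ± 0.38, limma adjusted p = 0.00441). Hindlimb 14 thus stood above the other hindlimb samples in Tbx5, though far below every forelimb sample, and matrix counts are given without it as well.

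No matrix probe set passed an adjusted p of 0.05, 0 of 16 in the A design and 0 of 4 in the B design, where 0.0326% and 0.0117% of all tested probe sets passed. Most of the values were nonetheless lower in hindlimb. On the A array 14 of the 16 probe sets, and 9 of the 10 genes by their brightest probe set, had a difference below 0, against 52.2% of all tested probe sets. The median difference over the 10 genes was -0.289, where the median over all tested probe sets was -0.009. At an unadjusted p under 0.05, 8 of the 16 were lower in hindlimb and 0 higher, against 3.69% and 1.85% of all. The 8 probe sets belong to 5 genes, Col1a1, Col1a2, Col5a1, Tnc and Lum. They were 4 without hindlimb 12 and 4 without forelimb 13. Without hindlimb 14 they were 7, with 14 differences below 0 and a median of -0.25. The 14 values below 0 were 10 without forelimb 11. The count of higher ones was 1 without hindlimb 12 or without forelimb 11. On 5 of the 16 all hindlimb samples lay below all forelimb samples, and on 2 all lay above, against 6.1% and 4.94% of all. Among the 4 probe sets of the B array 3 had a difference below 0, against 52.2%. At an unadjusted p under 0.05 there was 1 lower (Tnc) and 1 higher (Col1a2), against 3.21% and 2.33% of all. Tnc lost this level without hindlimb 26 (limma unadjusted p = 0.0785) and without forelimb 13 (limma unadjusted p = 0.0952). Without hindlimb 26 Dcn was the lower one instead (limma unadjusted p = 0.0442). Col1a2 lost it when any of hindlimb 14, hindlimb 26, forelimb 13 or forelimb 25 was left out. On 2 of the 4 B probe sets (Tnc and Fbn2) all hindlimb samples lay below all forelimb samples and on 0 above, against 6.14% and 4.81%. Probe sets of 1 gene read the same RNA and are not independent.

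**Figure D1:**
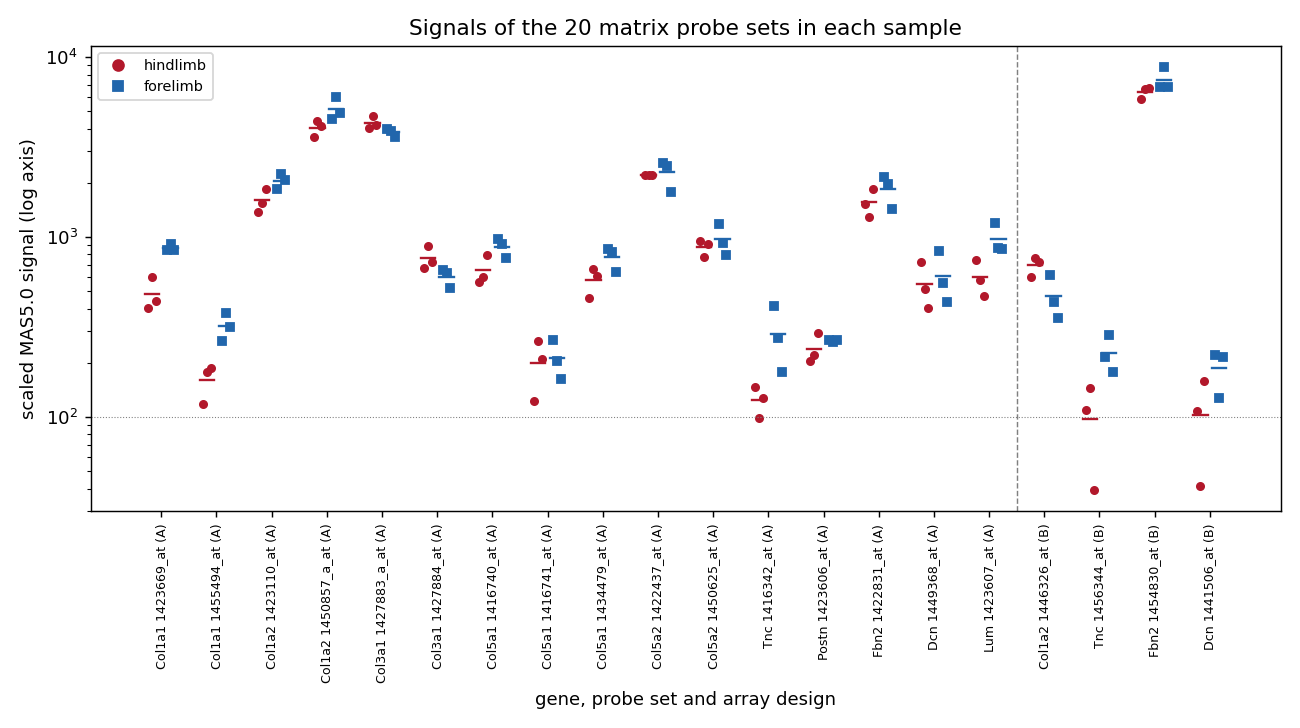
Scaled MAS5.0 signal (log axis) of each of the 20 matrix probe sets in each sample, with hindlimb (circles) left of forelimb (squares) and a short line at each limb's mean; the A array is left of the dashed line, the B array right of it, and the dotted line marks a signal of 100. On the A array Col1a1, Tnc, Lum and the brightest Col1a2 probe set show no overlap of the limbs, with hindlimb below. Both Col3a1 probe sets show none either, with hindlimb above. Heights of different probe sets cannot be compared with each other.

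Col1a1, the main chain of type I collagen, had the smallest p of the matrix genes. Its brighter probe set (1423669_at) had signals of 405, 596 and 443 in hindlimb 12, 14 and 26, and 848, 915 and 852 in forelimb 11, 13 and 25. The dimmer one (1455494_at) had 118, 178 and 186 in hindlimb and 264, 377 and 317 in forelimb. On both, every hindlimb sample lay below every forelimb sample. The difference was -0.83 ± 0.15 (SE, n = 3 samples per limb, limma adjusted p = 0.183) on the brighter and -0.87 ± 0.19 (limma adjusted p = 0.332) on the dimmer, forelimb being 1.78-fold and 1.83-fold above hindlimb. By p they held ranks 19 and 40 of 15338. With array weights the brighter one passed (limma adjusted p = 0.0476), and over all 15 alternative settings its adjusted p ran up to 0.532 with a difference of -0.99 to -0.73.

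Col1a2, the second chain of type I collagen, gave smaller differences on the A array and the other sign on the B array. The brightest probe set (1450857_a_at) had 3574, 4392 and 4150.2 in hindlimb and 4518, 5979 and 4885 in forelimb, with no overlap. A second (1423110_at) had 1381, 1555 and 1858 in hindlimb and 1845, 2227 and 2064 in forelimb, where hindlimb 26 reached the lowest forelimb sample. Their differences of -0.34 ± 0.12 (limma adjusted p = 0.752) and -0.36 ± 0.14 (limma adjusted p = 0.765) were alike. The B-array probe set (1446326_at) had 598, 768 and 726 in hindlimb and 617, 433 and 356 in forelimb. There the hindlimb samples were mostly the higher ones, with hindlimb 12 just below forelimb 11, and the difference was 0.57 ± 0.21 (limma adjusted p = 0.894). The designs were scaled apart, so the A and B values stand side by side without a test between them.

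Col3a1, the only chain of type III collagen, was the matrix gene with higher hindlimb values on the A array. Its brighter probe set (1427883_a_at) had 4035, 4734 and 4170.4 in hindlimb and 3986, 3878 and 3587 in forelimb. The dimmer (1427884_at) had 673, 892 and 724 in hindlimb and 657, 627 and 522 in forelimb. On both, all hindlimb samples lay above all forelimb samples, though hindlimb 12 exceeded forelimb 11 by only 0.02 and 0.03 on the log2 scale. The differences were 0.17 ± 0.10 (limma adjusted p = 0.945) and 0.32 ± 0.15 (limma adjusted p = 0.91), neither past the threshold.

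Col5a1, a chain of type V collagen, had 3 probe sets on the A array. The brightest (1416740_at) had 561, 597 and 799 in hindlimb and 977, 914 and 763 in forelimb, a difference of -0.43 ± 0.16 (limma adjusted p = 0.752). The next (1434479_at) had 460.3, 664 and 604 in hindlimb and 863, 830.3 and 638 in forelimb, a difference of -0.42 ± 0.17 (limma adjusted p = 0.828). On both the limbs overlapped through 1 sample of each limb, with forelimb 25 the lowest forelimb sample. The dimmest (1416741_at) had 123, 263 and 209 in hindlimb and 266, 205 and 163 in forelimb, and its difference of -0.11 had a 95% interval of -0.65 to 0.43. Its sign turned without hindlimb 12 (0.15) and without forelimb 11 (0.05).

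Col5a2, the partner chain in type V collagen, showed no clear difference. Its brighter probe set (1422437_at) was nearly level in hindlimb, at 2208, 2218 and 2199, and spread over 2581, 2484 and 1785 in forelimb. The difference was -0.03, with a 95% interval of -0.34 to 0.28, so that with this interval a hindlimb deficit of the size seen for Col1a1 lies outside it. The dimmer probe set (1450625_at) had 946, 773 and 911 in hindlimb and 1179.9, 931 and 796 in forelimb, a difference of -0.13 with an interval of -0.48 to 0.22. The sign of both turned without forelimb 11, to 0.07 and 0.02. That of the brighter one also turned without forelimb 13 (0.04) and with array weights (0.07). That Col1a1 and Col5a2 have different limb differences was not tested.

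**Figure D2:**
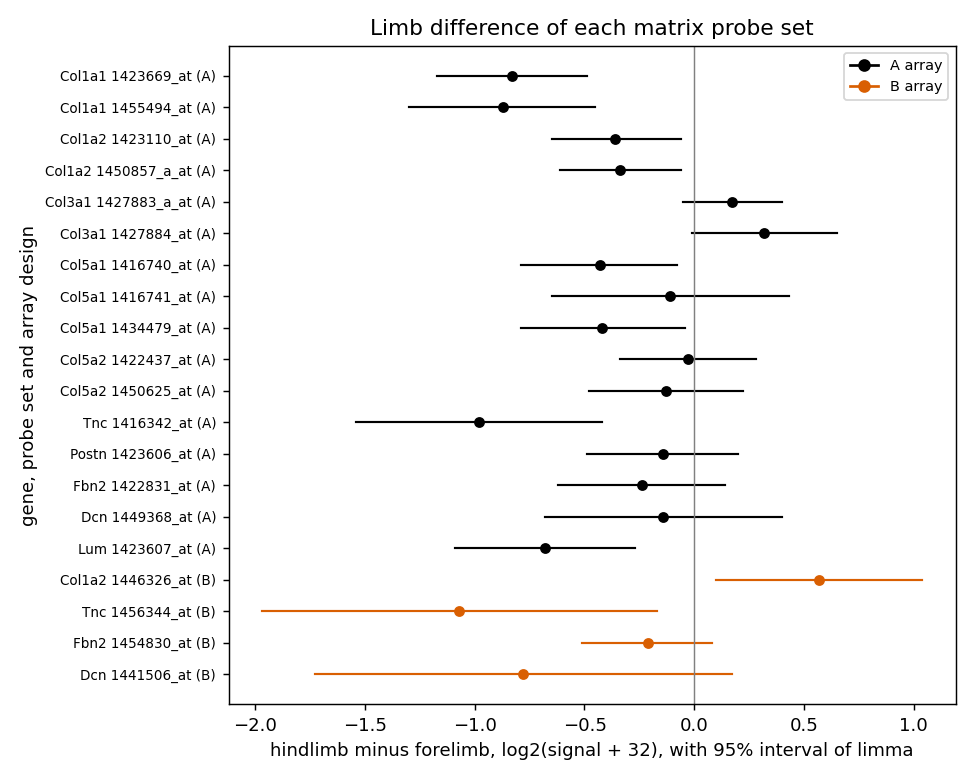
Hindlimb minus forelimb difference on the log2(signal + 32) scale for each matrix probe set, with limma's 95% interval, unadjusted for the number of probe sets, for the A array (black) and the B array (orange). On the A array the intervals of Col1a1, Col1a2, Tnc, Lum and 2 of the 3 Col5a1 probe sets lie below 0, as does that of Tnc on the B array, those of Col3a1 reach from -0.05 and -0.01 to 0.40 and 0.65, and the B-array probe set of Col1a2 lies above 0.

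Tenascin C, a matrix glycoprotein of forming tendon and of mesenchymal condensations, had the largest difference of the members on each design. On the A array (1416342_at) Tnc had 146, 98.4 and 128 in hindlimb and 415, 273 and 178 in forelimb. Its B-array probe set (1456344_at) had 109, 145 and 39.3 in hindlimb and 216, 286 and 178 in forelimb. The limbs did not overlap on either, but the lowest hindlimb sample was hindlimb 14 on the A array and hindlimb 26 on B. The differences were -0.98 ± 0.25 (limma adjusted p = 0.496, rank 80 by p) and -1.07 ± 0.41 (limma adjusted p = 0.894). Both probe sets are dim, and over the alternative settings the differences ran from -1.25 to -0.71 for the A probe set and from -1.37 to -0.69 for the B probe set. By these fits the forelimb signal of Tnc was 1.98-fold and 2.1-fold above hindlimb.

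Periostin, secreted by perichondrium and tendon-forming mesenchyme, was steady in forelimb. Postn (1423606_at) had 204, 221 and 291 in hindlimb and 266, 262 and 266 in forelimb. Hindlimb 26 lay above every forelimb sample and the other 2 hindlimb samples lay below, so the difference of -0.14 (95% interval -0.49 to 0.20) did not separate the limbs. Fibrillin 2 gave alike values on both designs. Fbn2 had 1519.7, 1298 and 1853 in hindlimb and 2157, 1970.3 and 1436 in forelimb on the A array (1422831_at), a difference of -0.24 ± 0.17 (limma adjusted p = 0.963) with overlapping limbs. Its B-array probe set (1454830_at) had 5825, 6649 and 6708 in hindlimb and 6778, 8800.3 and 6823 in forelimb. There the hindlimb samples lay just below the forelimb samples, at -0.21 ± 0.13 (limma adjusted p = 0.906).

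Lumican, which binds collagen fibrils and sets their spacing, had 747, 577 and 468 in hindlimb and 1192, 872 and 853 in forelimb (Lum, 1423607_at). The limbs did not overlap, and the difference was -0.68 ± 0.19 (limma adjusted p = 0.552, rank 104 by p), forelimb being 1.6-fold above hindlimb. Decorin, a related fibril-binding proteoglycan, varied more within a limb than between limbs. Dcn had 724, 512 and 401 in hindlimb and 835, 556 and 436 in forelimb on the A array (1449368_at), a difference of -0.14 with a 95% interval of -0.68 to 0.40. Its sign turned without forelimb 11 (0.10) and without hindlimb 26 (0.05). The dim Dcn probe set of the B array (1441506_at) had 108, 41.4 and 159 in hindlimb and 220.0, 127 and 215 in forelimb, a difference of -0.78 with an interval of -1.73 to 0.17.

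Where a gene had several tested probe sets on the A array, they were compared by the log2 ratio of 1 probe set to the other in each sample, over 7 pairs of 5 genes. No pair gave an unequal limb difference past an adjusted p of 0.05 by a two-sided exact permutation test, but 3 against 3 samples cannot give a p below 0.1. The limb differences of the ratio were 0.04 for the Col1a1 pair, 0.02 for Col1a2, 0.10 for Col5a2 and -0.02 for the brighter Col5a1 pair. The Col3a1 ratio was 2.46 ± 0.08 in hindlimb and 2.61 ± 0.09 in forelimb (SD, n = 3 each), the 1 pair at exact p = 0.1 (0.7 adjusted over the 7 pairs), so its dimmer probe set gave the larger hindlimb excess. The dimmest Col5a1 probe set stood apart by -0.32 and -0.31 from the other Col5a1 probe sets (exact p = 0.3 and 0.2, each 0.7 adjusted). None of the 20 probe sets carries the Affymetrix suffixes that mark probes shared between genes.

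Across samples, the genes did not follow 1 order. Taking the brightest A probe set of each gene and its deviation from the mean of the 6 samples, the mean over the 10 genes was -0.17, -0.20 and -0.17 in hindlimb 12, 14 and 26, and 0.36, 0.22 and -0.03 in forelimb 11, 13 and 25. The number of genes above their own mean was 1, 1 and 4 in the hindlimb samples and 8, 8 and 5 in the forelimb samples. Forelimb 25 was thus near the middle, with Col5a2 (-0.32), Fbn2 (-0.22) and Dcn (-0.34) below their means and Col1a1 (0.39) above. Forelimb 11 held the highest deviation of Tnc (1.04), Lum (0.64) and Dcn (0.55), and hindlimb 12 the lowest of Col1a1 (-0.63). Among the 14095 other named A probe sets, those with the smallest root mean square distance to this mean profile over the 6 samples were of Rusc1 and Marchf5 (0.038 each), Cav2 and Slc2a3 (0.066 each) and Fam3c (0.073). Their own differences were -0.42 to -0.33, and no adjusted p was below 0.498 in limma.

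**Figure D3:**
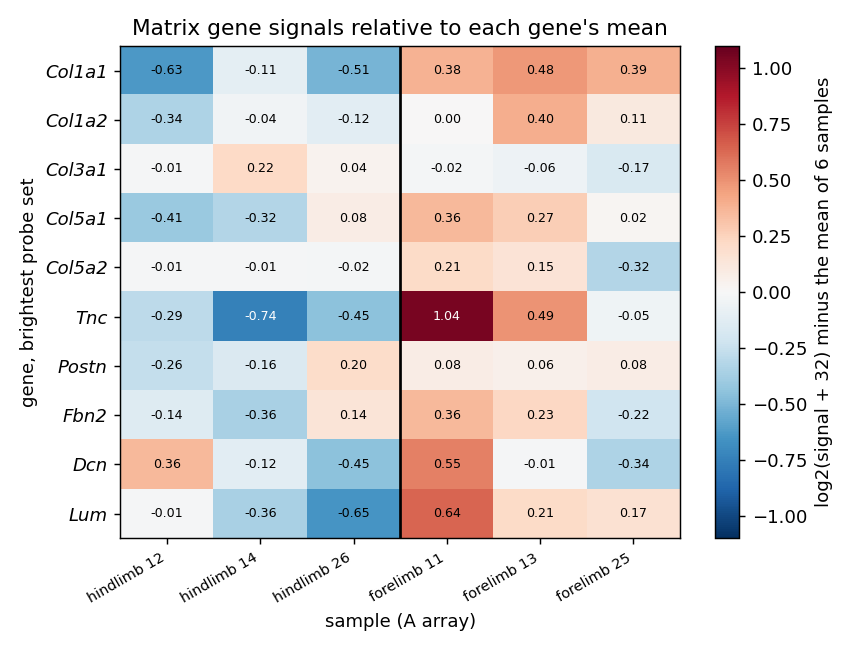
Deviation of log2(signal + 32) from each gene's mean over the 6 samples for the brightest A-array probe set of the 10 genes (rows), with hindlimb samples left of the line and forelimb samples right of it; red is above and blue below the mean. Col1a1 and Lum are below their means in all hindlimb samples and above them in all forelimb samples, while Col5a2, Tnc, Fbn2 and Dcn change sign within the forelimb.

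Other matrix genes, taken by the brightest tested probe set of each on the A array, were listed by role, and 0 of them passed an adjusted p of 0.05 in limma in either direction. The counts below stand against 52.2% of all tested A probe sets with a difference below 0, and 3.69% lower and 1.85% higher at an unadjusted p under 0.05. For B they stand against 52.2%, 3.21% and 2.33%. Among the other fibrillar chains, 3 of 3 tested had a difference below 0, against 52.2% of all, with a median of -0.43, and 2 were lower at an unadjusted p under 0.05, against 3.69%. These were Col2a1, the type II collagen of cartilage (-0.61), Col11a2 (-0.43) and Col11a1 (-0.33), which build its thin fibrils. Both remaining chains were measured on the B array, Col27a1 at -0.34 and Col24a1 at -0.85. The fibril-associated and beaded-filament collagens include Col9a2, which reached a signal of 100 in forelimb samples alone, so that the filter fixed its direction (-0.78). Of the other 8 tested 7 were below 0 (median -0.26), and 2 were lower at an unadjusted p under 0.05. The 1 tested on the B array had -0.49. Col9a1, a type IX chain on cartilage fibrils, had 0.19, while its partner Col9a3 had -0.51 and Col6a2, a beaded-filament chain, -0.04.

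Of 9 further leucine-rich proteoglycans 4 were tested. Osteoglycin (Ogn), at -1.26, reached a signal of 100 in forelimb samples alone, so that the filter fixed its direction. The other 3 were below 0, with a median of -0.31, and 2 were lower at an unadjusted p under 0.05. The 1 tested on the B array had -0.06. Biglycan (Bgn), the closest relative of decorin, had -0.31, fibromodulin (Fmod), a tendon proteoglycan, -0.23, and keratocan (Kera) -1.01. Kera had 256, 152 and 54.1 in hindlimb and 414, 277 and 237 in forelimb, with hindlimb 12 above forelimb 25. The microfibril and elastic fibre genes were spread around 0, with 7 of 12 below it, a median of -0.06 and 1 lower at an unadjusted p under 0.05, and on the B array 3 of 4 were below it (median -0.02). On the A array Mfap2, a microfibril glycoprotein, had 0.01, and the fibulins Fbln1 and Fbln2 had 0.07 and -0.15.

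Of the matricellular and adhesive glycoproteins 7 of 7 tested were below 0, against 52.2% of all (median -0.37), and 6 were lower at an unadjusted p under 0.05, against 3.69%. Fibronectin (Fn1), on which early matrix is assembled, had -0.37, Tgfbi, a relative of periostin, -0.34, and Sparc, a collagen-binding protein, -0.13. The B array gave 2 of 2 above 0, among them a Sparc probe set at 0.38. Of the receptors for collagen and matrix 5 of 10 were below 0 on the A array, with a median of -0.01 and 1 higher at an unadjusted p under 0.05. On the B array 1 of 6 was below 0, with a median of 0.21 and 2 higher at an unadjusted p under 0.05, against 2.33%. Those 2 were Itga5 (1.27) and Itga8 (0.41), integrin chains of fibronectin receptors. Itga5 was dim there, with 229, 234 and 261 in hindlimb and 37.1, 161 and 75.7 in forelimb, where forelimb 11 and 25 lay under 100. The higher one on the A array was also Itga8 (0.44), while Itga5 had 0.07 there. The integrin chains Itgb1, Itgb5 and Itgav had -0.04, 0.13 and 0.02. Of the connective tissue transcription regulators 8 of 8 were below 0 on the A array (median -0.21), and 2 were lower at an unadjusted p under 0.05. On the B array 2 of 4 were below 0 (median -0.02) and 0 had an unadjusted p under 0.05. The brightest on the A array were Prrx1 at -0.07, Twist1 at -0.27 and Twist2 at -0.65. No difference between these lists and the 10 genes was tested.

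**Figure D4:**
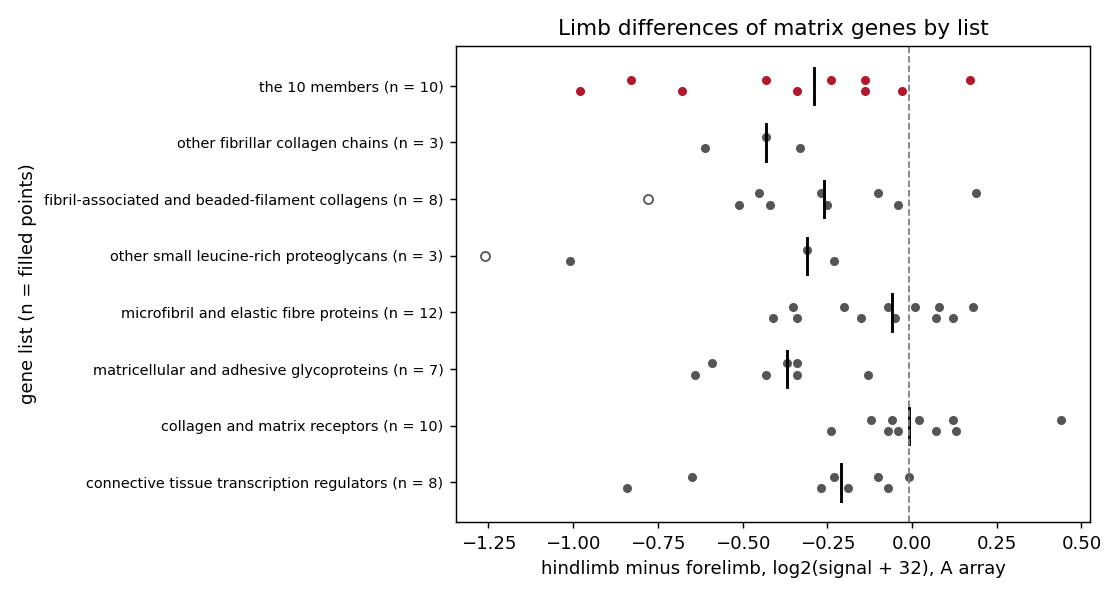
Hindlimb minus forelimb difference on the log2(signal + 32) scale on the A array for the 10 matrix genes (red) and 7 lists of other matrix genes (grey), 1 point per gene by its brightest tested probe set; open points are genes that reached a signal of 100 in 1 limb alone, black bars are medians of the filled points and the dashed line is the median of all tested probe sets. These medians run from -0.43 for the other fibrillar chains to -0.01 for the receptors.

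Of the signs of RNA quality, Gapdh parted the limbs on the A array and beta-actin did not. Summed markers of some other tissues parted them as well. The part of either in the matrix values was not tested. For Gapdh, the log2 signal of the 3′ probe set less that of the 5′ one was -0.28 ± 0.02 in hindlimb and -0.18 ± 0.09 in forelimb (SD, n = 3 each, exact permutation p = 0.1). With the B arrays it was -0.14 ± 0.03 in hindlimb and -0.16 ± 0.09 in forelimb (exact permutation p = 0.8). The beta-actin ratio gave exact permutation p = 0.3 and, with the B arrays, 0.9. Of 8 cartilage markers tested on the A array 6 were below 0, against 52.2% of all, and 3 were lower at an unadjusted p under 0.05, against 3.69%. These were Matn4 (-0.79), Acan (-0.72) and Col2a1 (-0.61). On each of them all hindlimb samples lay below all forelimb samples, against 6.1% of all. The cartilage markers, with Col9a1 (0.19) the brightest, summed to 7682 to 9923 in hindlimb and 9044 to 10319 in forelimb. Muscle markers (5 of 5 below 0) summed to 976 to 1261 in hindlimb and 1219 to 1713 in forelimb, and both sums overlapped between limbs. The summed signals of surface ectoderm were 3354 to 3944 in hindlimb and 4055 to 5184 in forelimb (4 of 8 below 0, 3 lower at an unadjusted p under 0.05). The 3 lower ones were the keratins Krt5 (-0.40), Krt14 (-0.83) and Krt15 (-1.38). Epcam (-0.01), Cdh1 (0.01) and Trp63 (0.09) were near 0, and Krt8 (0.28) and Krt18 (0.31) were above it. The summed signals of endothelium were 1859 to 1943 in hindlimb and 2023 to 2101 in forelimb (4 of 6 below 0). Neither the ectoderm nor the endothelium sum overlapped. Erythroid markers (4 of 4 above 0, 2 higher at an unadjusted p under 0.05) summed to 31420 to 34868 in hindlimb and 27999 to 30749 in forelimb, again without overlap. On the B array 0 of 2 cartilage markers and 0 of 1 endothelium marker were below 0. There 2 of 2 surface ectoderm markers and 1 of 1 muscle marker were below 0. Of the osteoblast markers, bone-forming cells being a major later source of type I collagen, Sp7 alone was tested, at 0.08. Ibsp, Dmp1 and Phex stayed under 100 on all 6 A arrays. Alpl, also untested, had 95, 117 and 83.8 in hindlimb and 87, 53 and 104 in forelimb.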

How the data were processed

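RNA of mouse autopods was hybridised to MOE430 A and B GeneChips. Intensities were deposited as MAS5.0 signals per the labels, which lack this entry for forelimb 11 of the A design. The values are on a linear scale. The authors' values had a 2% trimmed mean of 350.1 on each A array and 70.0 on each B array, from which their scaling was read. Gene symbols are those of the platform annotation, brought up to date by gene identifier through RefSeq's gene table. A single symbol was held by 20393 A and 14674 B probe sets, several by 691 and 245, and none by 1606 and 7656.

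Here each array was rescaled to a trimmed mean of 500, by factors of 1.43 (A) and 7.14 (B), which makes the signal filter laxer for B. Control probe sets, 64 per design, did not enter the fit. Limma 3.58.1 (R 4.3.3) compared hindlimb with forelimb in each design, with an intensity trend in the variance prior and two-sided p-values. Exact tests used scipy 1.17.1 in Python 3.11.15, and matplotlib 3.10.9 drew the figures. The fit was run on simulated data with 50 probe sets changed at each fold size. At an adjusted p under 0.05 it recovered 26% of 1.5-fold and 78% of 2-fold changes for A. For B it recovered 6% and 36%, so changes of these sizes can be missed. The simulated data gave 157 calls for A and 112 for B, where the real data gave 5 and 2. With more calls the adjustment lets larger p-values pass, so these shares overstate the recovery to be had in the real data. Precision is limited by the number of arrays, with median standard errors of 0.16 (A) and 0.23 (B). Members and gene lists were chosen with earlier results of these data known. Named were all member probe sets, the 3 brightest genes of each other matrix list with any past the threshold, the limb-specific factors Pitx1 and Tbx5, and the 5 genes nearest to the members' mean profile. Marker lists of other tissues are given mainly by counts and summed signals. Ogn, Col9a2, Itga5, Itga8 on the A array, Matn4, Acan, Ibsp, Dmp1, Phex, Alpl and the surface ectoderm genes were named after their values were seen. Alternatives changed the pseudocount (1 or 100), the filter (none or 200), the normalization (quantile, or signals left as deposited) and the variance model (no trend, or array weights). Others added a block for consecutive sample numbers or left out each sample in turn.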

Additional observations from a re-analysis of the deposited data

How the results depend on the processing

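No matrix probe set passed the threshold under the alternatives, except Col1a1 1423669_at with array weights, which gave 1 call on the A array. Of 294 recomputed matrix differences 285 kept their sign and side of the threshold. Sign changes numbered 8: Col5a2 1422437_at at 0.07 with array weights, and 7 with a sample left out. With a sample left out Col5a2 1422437_at ran from -0.19 to 0.07 (0.04 without forelimb 13), 1450625_at from -0.26 to 0.02, Col5a1 1416741_at from -0.31 to 0.15 and Dcn 1449368_at from -0.35 to 0.10. The 5 calls over all A probe sets became 1 without the filter, 14 with array weights and 8 with a replicate block of consecutive sample numbers; leaving out a sample gave 9 without hindlimb 12 and 3 without any other. Among B probe sets the 2 calls became 1 without the filter, 0 without the trend and 4 with the replicate block, and 1 to 4 with a sample left out (4 without hindlimb 12). No label says that consecutive numbers pair the limbs. The matrix median of -0.289 on the A array ran from -0.390 to -0.187. The B median of -0.497 over 4 probe sets became -0.209 with values as deposited and 0.177 with a filter at 200, since fewer probe sets then pass, and -0.505 to -0.320 with a sample left out (-0.320 without hindlimb 14). The ratio difference of the Col1a1 probe sets was -0.07 with a pseudocount of 100 and -0.04 to 0.19 with a sample left out, and the cause was not tested. With a sample left out that of Col1a2 ran from -0.06 to 0.11 and that of the brighter Col5a1 pair from -0.12 to 0.14. On the B array the dim probe sets of Tnc and Dcn had 5 of 6 arrays at or above a signal of 100.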

Other observations

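Ratios within an array were computed for 4 pairs of matrix genes on the A array. The pairs were chosen after the values were seen, so their unequal limb differences are a description and were not tested. The log2 ratio of Col1a1 to Col3a1, the type I to the type III chain, was -3.22, -2.92 and -3.15 in hindlimb 12, 14 and 26, and -2.19, -2.05 and -2.03 in forelimb 11, 13 and 25. It differed by -1.01 between limbs, a size that follows from picking genes of opposite sign, with SDs of 0.15 in hindlimb and 0.09 in forelimb. The ratio of Col1a1 to Col1a2, the 2 chains of type I collagen, was -3.00 ± 0.17 in hindlimb and -2.50 ± 0.15 in forelimb (SD, n = 3 each). That of Col1a2 to Col3a1, again genes of opposite sign, was -0.10 ± 0.08 in hindlimb and 0.41 ± 0.22 in forelimb. The ratio of Lum to Dcn was 0.04, 0.16 and 0.21 in hindlimb and 0.50, 0.62 and 0.92 in forelimb. It thus parted the limbs, as Lum alone did and Dcn alone did not. Such a ratio does not tell which gene moved.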
